A study of Mus musculus with 4 samples.

Results

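The gene encoding the tumour suppressor p53 (Trp53) and 9 of its established target genes were followed in cells sorted from the neonatal mouse cochlea after a short exposure to gentamicin, an aminoglycoside antibiotic that kills hair cells. The 10 genes, Trp53, Mdm2, Cdkn1a, Ccng1, Bbc3, Pmaip1, Bax, Phlda3, Sesn1 and Trp53inp1, were chosen by their symbols from the 23420 genes listed, and all 10 were among the 16077 genes with enough reads to be tested. Cochleae came from postnatal day 1 Atoh1-GFP transgenic mice on a CD1 background, in which an Atoh1 enhancer drives GFP in hair cells. The organs were cultured overnight in a medium that held penicillin in every group, and were then left untreated or given 0.5 mM gentamicin for 3 h. GFP-positive cells were collected by sorting as hair cells and GFP-negative cells as non-hair cells, which gave 4 groups, namely control hair cells, gentamicin-treated hair cells, control non-hair cells and gentamicin-treated non-hair cells, with 3 replicates each. The reporter is also known to show weakly in some supporting cells, which the sort was gated to leave out, and the GFP-negative fraction is a mixture of supporting cells, other epithelium and surrounding tissue. In such a mixture, fewer cells of a type and less RNA per cell cannot be told apart.

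The deposited value is a normalized read number, that is, reads on a gene scaled per library with 1 added, so that a gene without reads is listed at 1. The methods of the study name RPKM, but within a library one step served genes of any length, so the values were taken as not divided by length. Between 22400368 and 28151828 reads on genes were estimated per library. All 10 hair cell markers, among them Atoh1, Pou4f3 and Myo7a, were higher in hair cells, and their summed normalized read number was 12425–12953 in control hair cells against 218–252 in control non-hair cells. The 10 supporting cell markers did not separate the populations in this way, with sums of 2019–2391 and 1198–1830. The criteria for a change were p under 0.01 before adjustment and more than a 1.2-fold difference in limma. Adjustment of p followed Benjamini and Hochberg across all 16077 genes.

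p53 is a transcription factor that is held at a low level by the ubiquitin ligase Mdm2 and is stabilised, mainly as a protein, when DNA is damaged or ribosome production is disturbed. It then binds DNA as a tetramer and switches on genes that stop the cell cycle (Cdkn1a, encoding p21), open the outer mitochondrial membrane (Bax, Bbc3, Pmaip1) or restrain growth signalling (Sesn1, Phlda3), along with Mdm2 itself, which closes a negative feedback loop. Because p53 is controlled after translation, its activity is commonly read from the mRNA of its targets rather than from its own mRNA.

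The sequence that p53 recognises is a pair of half-sites of 10 bases, the p53 consensus. It was searched in windows of 300 bases, from 250 before to 50 after each annotated start, taken from RefSeq on GRCm38.p6. Windows were found for 8 of the 10 genes, 12 windows in all. A pair of half-sites with a spacer of at most 1 base and at most 2 mismatches lay in the windows of 3 genes, Cdkn1a, Ccng1 and Bax, while 0.682% of all 32851 windows held one. The motif reads the same on both strands. The stretches are shown here because they hold the closest matches to the consensus among these 12 windows, and capitals mark the pair of half-sites. Whether p53 binds them was not tested.
Cdkn1a: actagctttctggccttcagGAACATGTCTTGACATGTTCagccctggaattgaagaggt
Ccng1: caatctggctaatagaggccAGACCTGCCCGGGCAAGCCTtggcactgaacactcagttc
Bax: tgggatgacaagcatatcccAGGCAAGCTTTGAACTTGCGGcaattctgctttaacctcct

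The Cdkn1a stretch is chr17:29090908-29090967 on the plus strand, and its site has 1 mismatch to the consensus. It begins 51 bases upstream of one annotated start and 2841 bases upstream of the other. The Ccng1 stretch is chr11:40755442-40755501 on the minus strand, with 1 mismatch and its first base 195 bases upstream of the start. As few as 0.11% of all windows held a site with at most 1 mismatch. The Bax stretch is chr7:45467059-45467119 on the minus strand, with 2 mismatches, a spacer of 1 base and its first base 201 bases upstream of the start. No annotated exon overlapped the stretches of Cdkn1a, Ccng1 and Bax in GENCODE M21, and that of Bax lies within an intron of the overlapping gene model Gm45808. The windows of Trp53, Bbc3 and Sesn1 held a pair of half-sites with 3 mismatches, and 2.82% of all windows held one with at most 3. The Phlda3 window held none within 3 mismatches. The Mdm2 window held an exact half-site, found in 8.36% of all windows. Mdm2 is known for a second promoter within an intron, which these windows do not cover, so a missing match says nothing of p53 there.

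In gentamicin-treated hair cells 2 of the 10 genes changed, Mdm2 upward and Phlda3 downward, against 27.5% of all genes tested. Over all genes 2037 rose and 2381 fell, a split that turned to 2774 and 1591 when the libraries were scaled to equal totals. When an adjusted p under 0.05 was asked instead, Cdkn1a joined them as lower, 3 genes in all, against 33.2% of all genes. In gentamicin-treated non-hair cells none of the 10 changed in limma, against 5.44% of all genes, with 2 at an unadjusted p under 0.05, and with voom weights the number was also 0. By the adjusted p, 0 were called as well, against 0.342% of all genes. These shares depend on the spread shared by the 4 groups. With the non-hair cell groups fitted alone, 383 of all 16077 genes were called, and 0 by the adjusted p. The median log2 fold change of the 10 genes was -0.10 in hair cells, where that of all genes tested was -0.09, and -0.13 in non-hair cells, where that of all genes was -0.01. Treated and control libraries did not overlap for 6 of the 10 genes in hair cells, 3 in each direction, and 54.8% of all genes showed such a separation. In non-hair cells 1 of the 10 did so, against 17.8% of all genes.

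**Figure D1:**
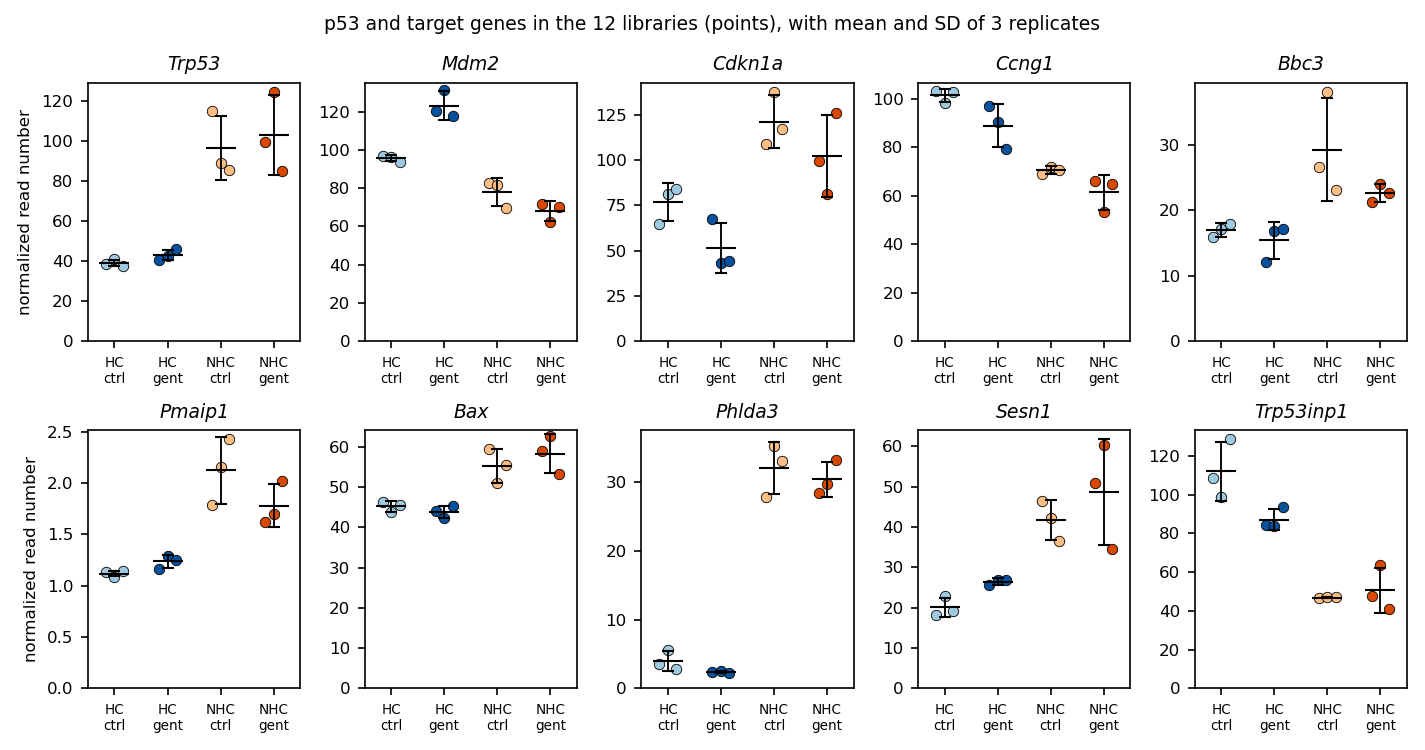
Normalized read number (y axis, from 0) of p53 and 9 target genes in each of the 12 libraries, by group on the x axis (HC, hair cells; NHC, non-hair cells; ctrl, control; gent, gentamicin). Points are libraries, and bars give the mean and SD of 3 replicates. The 3 treated hair cell libraries of Mdm2 lie at 117–131, above all control hair cell libraries at 93.8–96.9.

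Trp53 itself showed no change with gentamicin in either population. Its normalized read number was 38.5, 40.9 and 37.8 in control hair cells and 40.5, 42.7 and 45.9 in gentamicin-treated hair cells. The groups overlapped by a narrow margin, and the log2 fold change was 0.14 ± 0.14 (SE, limma, adjusted p = 0.474). This SE rests on the spread of all 4 groups. With the hair cell groups fitted alone in limma it was 0.07 (adjusted p = 0.167). In non-hair cells Trp53 was at 115, 89.3 and 85.5 without and 99.8, 125 and 85.0 with gentamicin, a log2 fold change of 0.09 ± 0.14 (adjusted p = 0.786). Trp53 mRNA was 2.46-fold lower in control hair cells than in control non-hair cells (adjusted p = 5.01e-06), and every hair cell library lay below every non-hair cell library. Trp53 spans chr11:69580359-69591873 on the plus strand (GRCm38), and 799–1260 reads per hair cell library lay behind these values.

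Mdm2, the ubiquitin ligase that marks p53 for degradation and is itself a p53 target, was the member that rose. It measured 96.9, 96.1 and 93.8 in control hair cells and 120, 131 and 117 in gentamicin-treated hair cells. All 3 treated libraries lay above all 3 controls, whose spread was small (95.6 ± 1.63, SD, n = 3, against 123 ± 7.40). The log2 fold change was 0.36 ± 0.08 (95% confidence interval 0.18 to 0.54), a 1.29-fold rise (limma, adjusted p = 0.00636). In non-hair cells Mdm2 measured 82.5, 81.7 and 69.7 without and 71.8, 62.3 and 69.8 with gentamicin. These groups overlapped, and the log2 fold change of -0.19 ± 0.08 did not meet the criteria (adjusted p = 0.257).

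The responses of Mdm2 in the 2 populations differed by 0.56 ± 0.12 on the log2 scale (interaction term in limma, adjusted p = 0.0116). Mdm2 was the 1 gene of the 10 with such a difference at an adjusted p under 0.05, against 13.4% of all genes tested. The rise in hair cells met the criteria in each of the 6 fits that left out a hair cell library and in each of the 9 other settings tried, where the log2 fold change ranged from 0.31 to 0.46. Control hair cells already held 1.23-fold more Mdm2 than control non-hair cells (adjusted p = 0.00585), though this difference met the criteria in 3 of 6 fits with a control library left out. It was lost without hair cell control 1 (log2 difference 0.29), without hair cell control 2 (0.29) and without non-hair cell control 3 (0.22). Mdm2 spans chr10:117688875-117710758 on the minus strand.

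**Figure D2:**
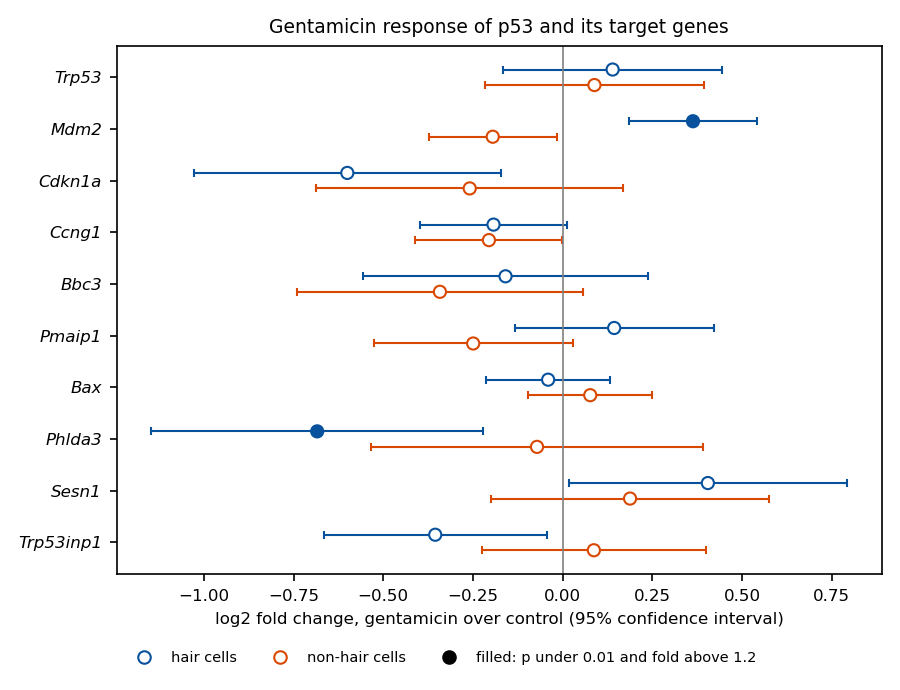
Log2 fold change with gentamicin (x axis) of each gene in hair cells (blue) and non-hair cells (orange), with 95% confidence intervals from limma, and filled symbols where p was under 0.01 with a fold above 1.2. In hair cells Mdm2 is filled at 0.36 and Phlda3 at -0.68, and no symbol is filled in non-hair cells.

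Among the members, the targets that act on the cell cycle, Cdkn1a and Ccng1, did not rise. Cdkn1a, which encodes the cyclin-dependent kinase inhibitor p21 and is the best known p53 target, measured 65.0, 81.5 and 84.0 in control hair cells and 67.3, 43.1 and 44.1 in gentamicin-treated hair cells. One treated library lay among the controls and the other 2 lay below them. The log2 fold change was -0.60 ± 0.19 (limma, adjusted p = 0.0352), and the unadjusted p missed the threshold of 0.01 narrowly. Without gentamicin-treated hair cell replicate 1 it was -0.81 and met the criteria, and it also met them without hair cell control 1 (-0.72) and under median-of-ratios scaling (-0.59). Without hair cell control 2 or 3 it was -0.55 and -0.53, and the adjusted p in limma rose to 0.108 in each. Without treated replicate 2 or 3 it was -0.49 and -0.50 (adjusted p = 0.130 and 0.111). The adjusted p also passed 0.05 with equal totals (0.0761) and with no filter on low values (0.0536). In non-hair cells it measured 109, 138 and 117 without and 99.8, 81.4 and 126 with gentamicin, with overlapping groups and a log2 fold change of -0.26 ± 0.19 (adjusted p = 0.526).

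Cdkn1a spans chr17:29090976-29100727 on the plus strand, and 273 of its 3553 exon bases are also covered on the opposite strand by the gene model AC167363.2. Whether reads were counted by strand is not given in the sources used here, so reads of that stretch may come from either. Ccng1, encoding cyclin G1, a p53 target that helps to recruit a phosphatase to Mdm2, measured 103, 98.2 and 103 in control and 96.9, 90.5 and 79.2 in treated hair cells. In non-hair cells it measured 68.7, 71.8 and 70.7 without and 66.2, 53.1 and 64.8 with gentamicin. Treated libraries lay below controls in both populations without overlap, by -0.19 ± 0.09 and -0.21 ± 0.09 on the log2 scale, but neither difference met the criteria (adjusted p = 0.134 and 0.291, limma). Without treated hair cell replicate 3 the first was -0.11, and without treated non-hair cell replicate 2 the second was -0.10. Ccng1 was the member that separated in both populations, and its responses differed by 0.01 ± 0.13 on the log2 scale (95% confidence interval -0.28 to 0.30).

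None of the 3 apoptosis genes among the members changed in either population, with 0 at an unadjusted p under 0.05 in limma. Bbc3, which encodes the BH3-only protein Puma, measured 15.9, 17.1 and 17.9 in control and 12.1, 16.9 and 17.2 in treated hair cells. The groups overlapped, with a log2 fold change of -0.16 ± 0.18 (adjusted p = 0.534). Bax, the effector that forms pores in the outer mitochondrial membrane, measured 46.3, 43.8 and 45.6 in control and 44.0, 42.5 and 45.4 in treated hair cells. Its log2 fold change of -0.04 had a 95% confidence interval of -0.21 to 0.13, the narrowest of the 10 genes in hair cells.

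In non-hair cells Bbc3 was at 26.6, 38.1 and 23.1 in controls and 21.2, 24 and 22.6 in treated libraries (adjusted p = 0.357), and Bax was at 59.5, 51.0 and 55.5 and at 59.0, 62.8 and 53.3 (adjusted p = 0.653). Both genes overlapped between treatments in these cells. Bax shares 192 of its 1576 exon bases with the gene model Gm45808 on the same strand, so reads there could not be assigned to one of them. Pmaip1, which encodes the BH3-only protein Noxa, was close to the limit of detection. It had an estimated 2–3 reads in each control hair cell library and 4–7 in each treated one, while non-hair cell libraries had 19–37 without and 16–29 with gentamicin. The treated hair cell libraries lay above the controls (1.16, 1.29 and 1.25 against 1.13, 1.09 and 1.14), but a difference of a few reads was not detectable as a change at this depth (log2 fold change 0.14 ± 0.13, adjusted p = 0.413). With a pseudocount of 0.1 the log2 fold change in hair cells was 0.61 (adjusted p = 0.113). In non-hair cells the log2 fold change was -0.25 ± 0.13 (adjusted p = 0.338), with overlapping groups.

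The remaining targets restrain growth and metabolism or amplify the p53 response. Sesn1 encodes sestrin 1, an inhibitor of mTORC1 signalling and a regulator of redox balance. It measured 18.2, 22.8 and 19.3 in control and 25.6, 27.0 and 26.9 in treated hair cells, without overlap. The log2 fold change of 0.40 ± 0.18 did not meet the criteria (limma, adjusted p = 0.10) with all 4 groups in the model. It met them when the hair cell groups were fitted alone (adjusted p = 0.0195), which was 1 of 9 other settings. With a hair cell library left out it met them in 0 of 6 fits (adjusted p from 0.0971 to 0.248). In non-hair cells the values were 46.5, 42.4 and 36.5 without and 51.0, 60.5 and 34.5 with gentamicin, and here the treated libraries spanned the controls on both sides (adjusted p = 0.622).

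Trp53inp1 encodes a nuclear protein that promotes p53 phosphorylation. It measured 109, 98.5 and 129 in control and 84.2, 83.8 and 93.4 in treated hair cells, again without overlap but downward. The log2 fold change of -0.36 ± 0.14 did not meet the criteria (limma, adjusted p = 0.0750). Like that of Sesn1, it met them in a fit of the hair cell groups alone (adjusted p = 0.0264), 1 of 9 other settings. It met them in 0 of 6 fits with a hair cell library left out (adjusted p from 0.0664 to 0.246). In non-hair cells it was at 46.6, 47.0 and 46.9 without and 47.5, 63.5 and 40.8 with gentamicin, so that the controls lay within the range of the treated libraries. The difference between the responses was -0.44 ± 0.20 on the log2 scale (adjusted p = 0.163).

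Phlda3 encodes a small pleckstrin homology domain protein that competes with Akt for membrane lipids. It measured 3.56, 5.62 and 2.84 in control hair cells and 2.32, 2.59 and 2.28 in treated hair cells. All treated libraries lay below all controls, with hair cell control 2 the highest, and the log2 fold change was -0.68 ± 0.21 (limma, adjusted p = 0.0282). The level was low in both hair cell groups, at 40–108 and 32–38 estimated reads per library. In non-hair cells it was at 27.9, 35.3 and 33.1 without and 28.4, 29.7 and 33.3 with gentamicin, a log2 fold change of -0.07 ± 0.21 (adjusted p = 0.897). The difference between the responses was -0.61 ± 0.30 (adjusted p = 0.191).

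The call of Phlda3 in hair cells was kept in 1 of the 6 fits that left out a hair cell library, the one without hair cell control 3. Without hair cell control 2 the log2 fold change was -0.41 (adjusted p = 0.0884), without control 1 it was -0.74 (adjusted p = 0.0499), and without treated replicates 1, 2 and 3 it was -0.66, -0.74 and -0.65. Scaling the libraries to equal totals (adjusted p = 0.0431), using no filter (adjusted p = 0.0426), voom weights (adjusted p = 0.0605) or a fit of the hair cell groups alone (adjusted p = 0.0498) also ended it, as the unadjusted p then passed 0.01. Phlda3 was the member with the largest difference between populations, 8.30-fold lower in control hair cells than in control non-hair cells.

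Markers of several other cell types also differed between these libraries. The summed normalized read number of 8 mesenchyme markers was 261, 560 and 307 in the control hair cell libraries and 182, 180 and 226 in the treated ones, against 5916–7395 in control non-hair cells. In treated hair cells 4 of the 8 fell and none rose (Col3a1 by 1.33 and Dcn by 0.69 on the log2 scale, for example), and none of the 8 was at 0 in any library. Of 6 endothelial markers 1 fell, with sums of 14–27.8 in control and 6.80–12.4 in treated hair cells. Of 10 supporting cell markers 3 fell, with sums of 2019–2391 and 1036–1717, and of 6 Schwann cell and glial markers 2 fell, with sums of 151–178 and 86.2–143. Among hair cell markers 1 of 10 fell, among macrophage markers 1 of 6 rose (sums of 1.11–1.84 in control and 2.06–3.04 in treated hair cells) and among the melanocyte markers tested 1 of 4 fell, while 6 neuron and 3 erythroid markers did not meet the criteria. The sums of 4 erythroid markers were 0.495–3.08 and 0.342–17.5. Over all genes tested the share called in hair cells was 27.5%. The mesenchyme markers were above it (50%), and the shares of the other marker lists lay near or below it (0–33.3%). By direction alone, 8 of 8 mesenchyme, 6 of 6 endothelial, 6 of 6 Schwann cell and glial and 9 of 10 supporting cell markers were lower with gentamicin. Their median log2 fold changes were -0.74, -0.75, -0.44 and -0.67, beside -0.09 for all genes, of which 9626 of 16077 were lower. Medians were -0.08 for hair cell, -0.21 for neuron, -0.17 for melanocyte, 0.05 for macrophage and 0.52 for erythroid markers. The part of these other cell types in the lower Phlda3 and Cdkn1a values of treated hair cells was not tested. In non-hair cells 1 of the 4 melanocyte markers tested fell with gentamicin, and no other marker met the criteria. Their neuron sums varied between libraries, at 578, 1405 and 1268 without and 594, 363 and 1015 with gentamicin. The part of such variation in the non-hair cell responses was not tested either.

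**Figure D3:**
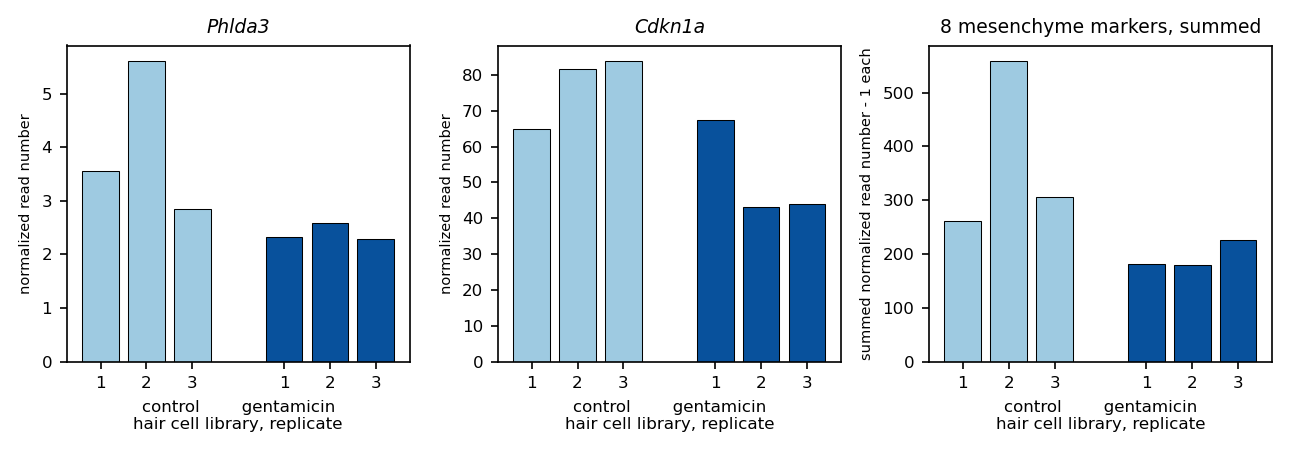
Normalized read number of Phlda3 (left) and Cdkn1a (middle), and the summed normalized read number, less 1 each, of 8 mesenchyme markers (right), in each control (light) and gentamicin-treated (dark) hair cell library. Hair cell control 2 is the highest library for Phlda3 (5.62) and for the mesenchyme markers (560), while for Cdkn1a control 3 (84.0) is the highest.

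Without gentamicin, all 10 genes differed between hair cells and non-hair cells, against 65.8% of all genes tested. Those lower in hair cells were Phlda3 (log2 difference -3.05 ± 0.21), Trp53 (-1.30 ± 0.14), Sesn1 (-1.06 ± 0.18), Pmaip1 (-0.91 ± 0.13), Bbc3 (-0.75 ± 0.18), Cdkn1a (-0.66 ± 0.19) and Bax (-0.29 ± 0.08). The value of Pmaip1, with its 2–3 reads per control hair cell library, depends on the 1 added to each value, and with a pseudocount of 0.1 it was -2.46. Pmaip1 had enough reads to be tested mainly through non-hair cells (19–37 reads per control library), that is, through one side of this comparison. With no filter on low values its difference met the criteria as well (limma, adjusted p = 3.25e-05). Those higher were Trp53inp1 (1.25 ± 0.14), Ccng1 (0.52 ± 0.09) and Mdm2 (0.30 ± 0.08). The control libraries of the populations did not overlap for any of the 10, against 79.2% of all genes. The median over the 10 genes was -0.71, beside -0.12 over all genes.

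TMM scaling moved the median of all genes from -0.12 to -0.01, and under it Bax (-0.17) and Cdkn1a (-0.54) no longer met the criteria, nor did they under median-of-ratios scaling. In this comparison libraries with the same number deviated together, and with the replicate number as a block 9 of the 10 genes met the criteria, Cdkn1a being the exception (adjusted p = 0.0160). Where single libraries were left out, the number was between 7 and 10. It fell to 7 without hair cell control 2 or without non-hair cell control 3, where Bax, Cdkn1a and Mdm2 no longer met the criteria.

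Divided by the merged length of all annotated exons, levels could be set beside each other only roughly. The transcripts expressed may be shorter than that length, by an amount that differs between genes. In control hair cells Ccng1 (28.5 ± 0.744 per kb, SD, n = 3) and Bax (28.1 ± 0.811) led and overlapped each other. Cdkn1a (21.3 ± 2.90), Mdm2 (18.6 ± 0.321) and Trp53inp1 (17.1 ± 2.38) followed, each overlapping the next. Below them came Trp53 (9.41 ± 0.393), Bbc3 (7.52 ± 0.472), Sesn1 (4.80 ± 0.605), Phlda3 (1.93 ± 0.924) and Pmaip1 (0.0432 ± 0.0104), with no overlap between neighbours. In gentamicin-treated hair cells Mdm2 (24 ± 1.46) overlapped Ccng1 (25 ± 2.55), and Cdkn1a (14.2 ± 3.86) overlapped Trp53inp1 (13.3 ± 0.838).

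In control non-hair cells the order per kb was different. Bax (34.5 ± 2.71) and Cdkn1a (33.9 ± 4.16) led, with Trp53 at 23.7 ± 4.0 and Phlda3 at 19.9 ± 2.45 ahead of or level with Ccng1 (19.8 ± 0.452). Mdm2 (15.1 ± 1.41), Bbc3 (13.3 ± 3.70) and Sesn1 (10.2 ± 1.26) overlapped in turn, and Trp53inp1 (7.08 ± 0.0353) and Pmaip1 (0.411 ± 0.118) were lowest. The 2 BH3-only genes were far apart in both populations, Bbc3 being well above Pmaip1.

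**Figure D4:**
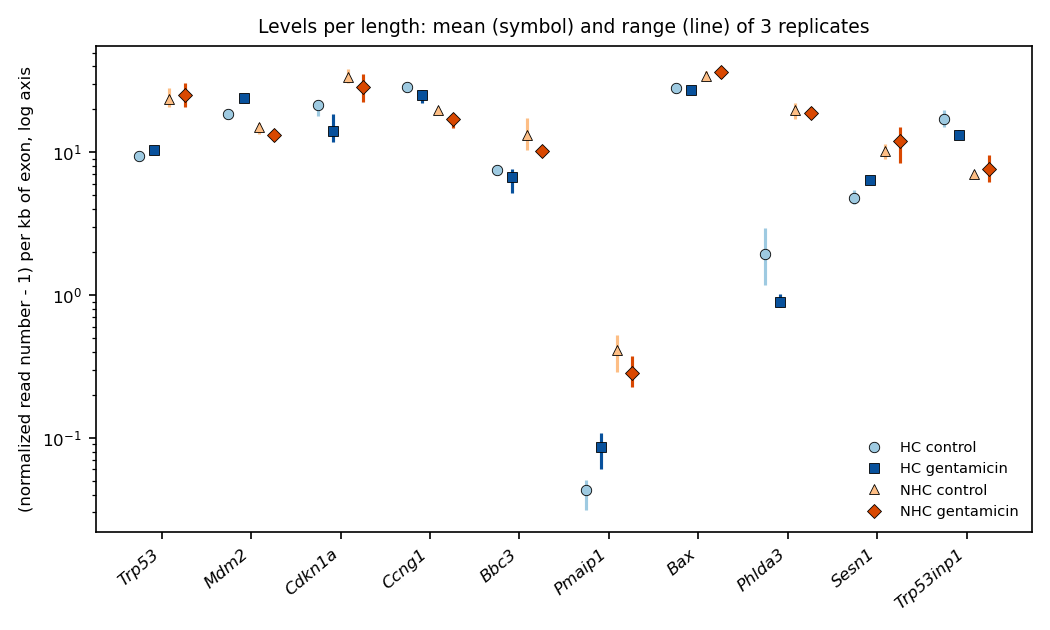
Normalized read number less 1, per kb of exon (y axis, log scale), of each gene in the 4 groups. Symbols are means and lines the range of 3 replicates. Pmaip1 is the lowest in every group, at 0.0432 in control hair cells, and Phlda3 drops from 19.9 in control non-hair cells to 1.93 in control hair cells.

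Over the 12 libraries the genes with a pattern most like that of Trp53 were Nr2f2, Plscr4 and Exoc3 (Pearson r of log2 values 0.995 for each). For Mdm2 they were Ggps1 (0.993), Gdf1 (0.990) and Vps26b (0.983), and for Cdkn1a Ndrg2 (0.975), Ybx2 (0.972) and Gm10863 (0.970). The libraries fall into 4 groups of 3, so these values mostly describe the order of the group means.

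Among 40 other direct p53 targets, 8 rose and 4 fell in gentamicin-treated hair cells, and 28 did not meet the criteria. The share called was 30.0%, close to the 27.5% of all genes. The median log2 fold change was -0.07, beside -0.09 for all genes. Of those that rose, Sco2, a cytochrome c oxidase assembly factor, went from 10.2, 7.38 and 7.88 to 14, 18.7 and 15.6 (log2 fold change 0.93 ± 0.20, adjusted p = 0.00453). Plk3, a stress-responsive polo-like kinase, went from 4.30, 4.38 and 3.86 to 7.76, 8.95 and 6.62 (0.89 ± 0.17, adjusted p = 0.00233). Rchy1, which encodes Pirh2, another ubiquitin ligase for p53, went from 28.7, 32.2 and 30.9 to 47.3, 48.9 and 46.6 (0.64 ± 0.08, adjusted p = 0.000261). In these 3 genes treated and control libraries did not overlap. Lrdd (also named Pidd1), the scaffold of the PIDDosome, rose from 5.26, 5.53 and 5.10 to 7.64, 7.82 and 7.52 (0.53 ± 0.15, adjusted p = 0.0185).

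Of the direct targets that fell, Sfn, encoding the cell cycle inhibitor 14-3-3 sigma, went from 16.1, 18.1 and 26.2 to 8.09, 6.32 and 8.27 (log2 fold change -1.39 ± 0.30, limma, adjusted p = 0.00521). Sesn2, the paralog of Sesn1, went from 20.5, 23.9 and 19.1 to 15.9, 10.1 and 13.7 (-0.70 ± 0.16, adjusted p = 0.00764), opposite in sign to Sesn1. Tnfrsf10b, a death receptor, went from 24.8, 24.1 and 25.8 to 18.7, 19.2 and 14.7 (-0.52 ± 0.10, adjusted p = 0.00347). Apaf1, the scaffold of the apoptosome, went from 15.2, 19.0 and 14.7 to 12.4, 11.3 and 10.3 (-0.52 ± 0.15, adjusted p = 0.0219). In all of these the groups were separate. In non-hair cells 1 of the 40 changed, where 5.44% of all genes did, namely the translesion polymerase Polk, from 30.2, 38.3 and 31.5 to 26.4, 22.7 and 27.2 (-0.39 ± 0.12, adjusted p = 0.156). With a library left out the number was 0–2, with 0 without control 2 or treated replicate 2 and 2 without control 3 or treated replicate 3.

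Of 20 activators and cofactors of p53, 17 had enough reads to be tested. In treated hair cells 4 rose, 5 fell and 8 did not meet the criteria, so that 52.9% were called beside 27.5% of all genes. Their median was -0.27, beside -0.09 for all genes. Kat5, the acetyltransferase Tip60, rose from 37.0, 35.6 and 33.2 to 56.8, 64.9 and 59.0 (0.77 ± 0.08, adjusted p = 6.53e-05). Atm, the kinase that responds to DNA double-strand breaks, fell from 40.3, 38.7 and 48.4 to 23.0, 24.1 and 27.5 (-0.77 ± 0.11, adjusted p = 0.000577). These were the genes of this list with the largest changes in each direction, and neither overlapped.

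The related coactivators Ep300 and Crebbp moved in opposite directions, Ep300 by 0.41 ± 0.08 (adjusted p = 0.00235) and Crebbp by -0.46 ± 0.09 (adjusted p = 0.00238). Wrap53 (0.45 ± 0.09, adjusted p = 0.00413) and Trp53bp2 (0.44 ± 0.08, adjusted p = 0.00246) rose as well. The kinase gene Hipk2 (-0.53 ± 0.14, adjusted p = 0.0135) and Rpl23 (-0.56 ± 0.14, adjusted p = 0.0120), a ribosomal protein that can bind Mdm2, fell. In non-hair cells 1 of the 17 changed, Prkdc (0.28 ± 0.08, adjusted p = 0.126), which encodes the catalytic subunit of the DNA-dependent protein kinase. That number was 0–2 with a library left out, with 0 without control 2 or treated replicate 1 and 2 without control 3, treated replicate 2 or treated replicate 3.

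Of 10 inhibitors of p53, 3 rose and 1 fell in treated hair cells, 4 of 10 beside 27.5% of all genes. Their median was 0.14, beside -0.09 for all genes. Sirt1, the deacetylase that acts on p53, had the largest change of any gene in these lists next to Sfn, from 22.8, 23.8 and 26.1 to 59.5, 69.2 and 54.4 (1.33 ± 0.10, adjusted p = 1.56e-05). Every treated library held more than every control. Trim24 (0.42 ± 0.07, adjusted p = 0.000815), a ubiquitin ligase for p53, and Usp7 (0.30 ± 0.07, adjusted p = 0.00645), the deubiquitinase shared by p53 and Mdm2, rose too. Ppp1r13l, which encodes the inhibitory protein iASPP, fell from 26.4, 29.4 and 24.2 to 16.8, 13.1 and 12.4 (-0.93 ± 0.21, adjusted p = 0.00688). In non-hair cells Hdac1 was the 1 gene that changed (0.31 ± 0.08, adjusted p = 0.104). The number was 0–3 with a library left out (0 without control 2, 3 without control 3, 2 without treated replicate 1), and 2 under equal totals, TMM or median-of-ratios scaling.

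Of 14 cell cycle genes known to be repressed when p53 acts through p21 and the DREAM complex, 2 rose and none fell in treated hair cells, 14.3% beside the higher share of 27.5% of all genes. Their median was -0.16, beside -0.09 for all genes. Ccnb2, encoding cyclin B2, went from 1.83, 1.86 and 1.88 to 4.05, 4.72 and 3.39 (1.12 ± 0.24, adjusted p = 0.00475), and Aurka, a mitotic kinase, from 2.87, 3.22 and 2.80 to 4.30, 4.64 and 4.49 (0.60 ± 0.19, adjusted p = 0.0291). Both were low in all hair cell libraries, Aurka no longer met the criteria with any hair cell library left out, and Ccnb2 no longer met them with voom weights. Between the control populations 13 of the 14 were lower in hair cells, where 65.8% of all genes differed and 6062 of 16077 were lower. The median log2 difference was -3.30, beside -0.12 for all genes. In non-hair cells 0 of the 14 changed in limma and 0 had an unadjusted p under 0.05, the lowest p being those of Cdc20 (log2 fold change 0.20 ± 0.21, adjusted p = 0.661) and Mybl2 (0.17 ± 0.20, adjusted p = 0.685).

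**Figure D5:**
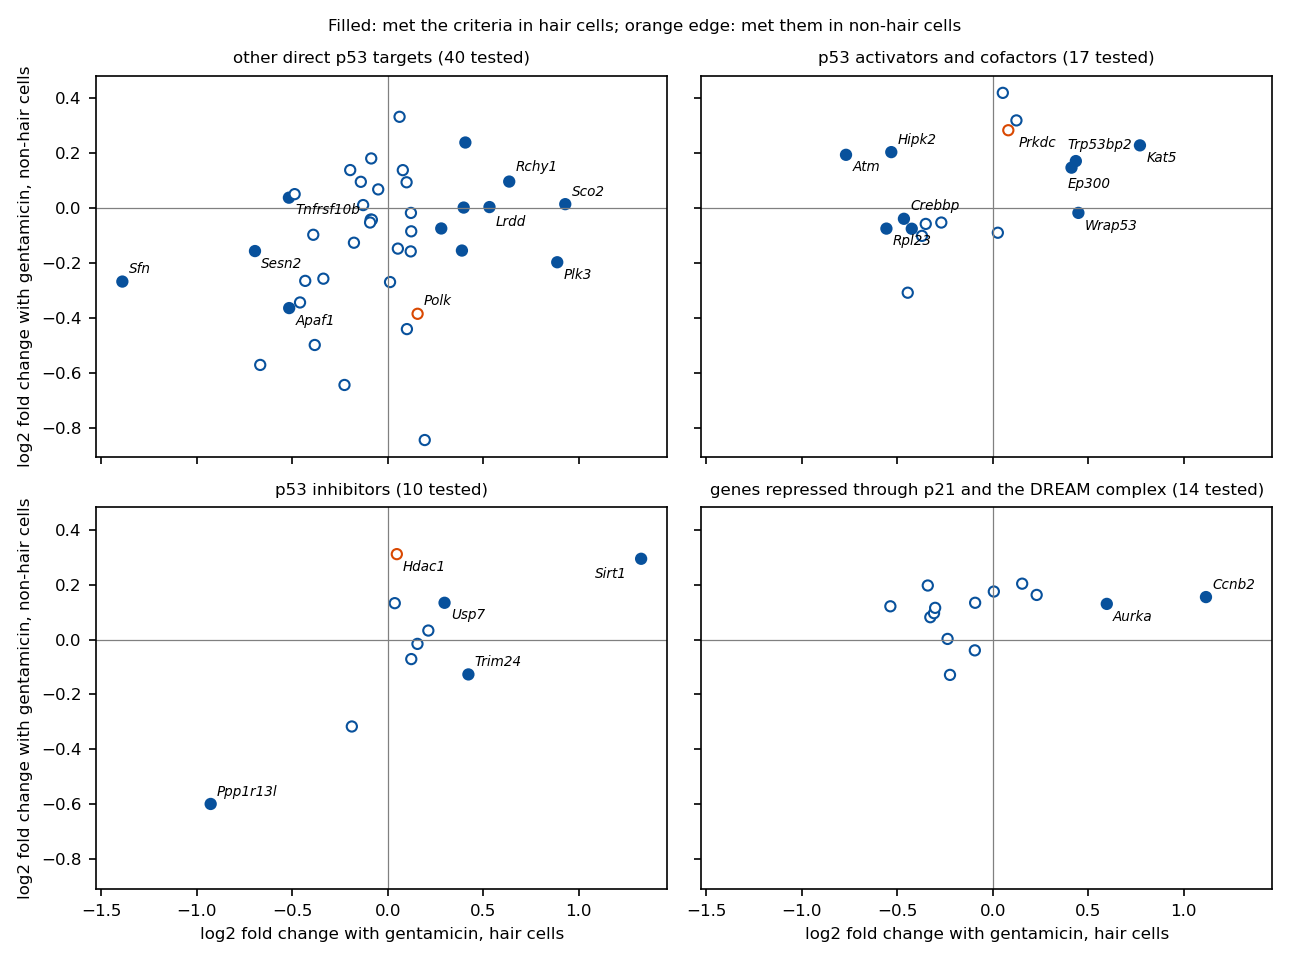
Log2 fold change with gentamicin in hair cells (x axis) and in non-hair cells (y axis) of the genes in 4 lists around p53, with the number tested above each panel. Filled symbols met the criteria in hair cells, and orange edges mark genes that met them in non-hair cells. Called genes lie on both sides of 0 in hair cells, with Sirt1 at 1.33 and Sfn at -1.39.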

How the data were processed

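The deposited files list, for each of the 4 groups, 3 biological replicates as normalized scores per gene. The authors trimmed the 50 bp single-end reads, aligned them to mm10 with TopHat2 and deposited these scores, called normalized read numbers in the text, each with 1 added. The study's methods name RPKM, but the scores showed no division by gene length, and the scaling factor is not given in the sources used here. Dividing the scores less 1 by each library's smallest step gave 81.8–82.7% of low values within 0.1 of a whole read, and the reads quoted are these estimates.

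Genes with at least 100 estimated reads over the 12 libraries were tested with limma 3.58.1 (R 4.3.3) on log2 scores, 1 model with 4 group means and a variance trend. Each SE thus rests on 1 spread per gene shared by the 4 groups, not on that of the groups compared alone. A gene was called at p under 0.01 with a fold above 1.2, and the interaction at an adjusted p under 0.05. The fit was tested on simulated data. A value per kb is the score less 1 divided by the merged exon length in GENCODE M21. The summed marker values are also less 1 per gene. Tables were handled with pandas 2.3.3 in Python 3.11.15.

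The members and lists were chosen with earlier results of these data known. Of other lists, up to 4 called genes with the largest change in each direction are named, or, where none was called, the 2 with the lowest p. For Trp53, Mdm2 and Cdkn1a the 3 most correlated genes are named. Same-numbered control hair cell and non-hair cell libraries deviated together (r = 0.216, 0.316 and 0.200 for deviations from group means), so a fit with the replicate number as a block is given for that comparison. The numbers come from the file headers. Alternatives were other scalings, a pseudocount of 0.1, other filters, fits of the 2 groups alone, voom weights, the block, and each library left out.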

Additional observations from a re-analysis of the deposited data

Results flagged for a closer look

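For 11 of the 37 genes named, most of them picked for a large change in hair cells, the response to gentamicin differed between hair cells and non-hair cells by the interaction term in limma at an adjusted p under 0.05. Over all genes tested the share was 13.4%, and over the whole lists it was 1 of 10 members, 4 of 40 other direct targets, 5 of 17 activators and cofactors, 2 of 10 inhibitors and 0 of 14 genes repressed through p21 and DREAM (limma, with 1 of the 14 at an unadjusted p under 0.05). Each difference is given as the log2 fold change in hair cells minus that in non-hair cells. Mdm2 differed by 0.56 ± 0.12 (SE, adjusted p = 0.0116), from 0.36 in hair cells and -0.19 in non-hair cells. Rchy1 differed by 0.54 ± 0.11 (adjusted p = 0.0128), Sirt1 by 1.03 ± 0.14 (adjusted p = 0.00198) and Trim24 by 0.55 ± 0.09 (adjusted p = 0.00517). Plk3 differed by 1.09 ± 0.23 (adjusted p = 0.0140), Kat5 by 0.54 ± 0.11 (adjusted p = 0.00932) and Wrap53 by 0.47 ± 0.13 (adjusted p = 0.0391). In the other direction, Atm differed by -0.96 ± 0.16 (adjusted p = 0.00494), Hipk2 by -0.73 ± 0.20 (adjusted p = 0.0320), Tnfrsf10b by -0.55 ± 0.15 (adjusted p = 0.0309) and Crebbp by -0.43 ± 0.12 (adjusted p = 0.0429). In non-hair cells none of these 11 genes met the criteria for change.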

How the results depend on the processing

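Of 67 log2 fold changes recomputed under the alternatives, 36 kept both direction and call throughout and 11 reversed at least once. The number of members changed in hair cells was 2 and became 1 with equal totals, without the filter and with voom weights, 3 under median-of-ratios scaling (Cdkn1a added) and 3 with the 2 groups fitted alone (Mdm2, Sesn1 and Trp53inp1), and 1–2 with a library left out, Mdm2 being kept each time. In non-hair cells it was 0, and 0–1 with a library left out (Mdm2 without control 3, Sesn1 without treated replicate 3). The number with different responses was 1, and 1–2 with a library left out (Trp53inp1 added without treated non-hair cell replicate 3). With equal totals Bax in hair cells turned to 0.055. With a library left out, Bbc3 in hair cells ranged from -0.25 to 0.0046. In non-hair cells Trp53 ranged from -0.058 to 0.22, Phlda3 from -0.17 to 0.00093, Trp53inp1 from -0.089 to 0.23, Cdc20 from -0.040 to 0.34 and Mybl2 from -0.087 to 0.35. For the difference of the responses the ranges were -0.082 to 0.20 for Trp53, -0.089 to 0.093 for Ccng1, -0.024 to 0.35 for Bbc3 and -0.013 to 0.39 for Sesn1. The cause was not tested.

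For gentamicin the replicate numbers did not pair the libraries (r = 0.0369, 0.0523 and 0.0369 in hair cells, and 0.208, -0.232 and 0.683 in non-hair cells). With the replicate block the numbers of changed members were 2 in hair cells, 0 in non-hair cells and 1 for the difference, and among members it changed no call but that of Cdkn1a between the control populations, 9 of 10. At 2–7 reads per hair cell library, Pmaip1 is limited by depth.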
